A study of Mus musculus with 8 samples.

Results

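The germline imprinting control regions of the mouse were examined in liver as 18 fixed windows of the mm9 genome, named here for Mcts2, Nnat, Nespas, Gnas, Peg10, Mest, Nap1l5, Peg3, Snrpn, H19, Kcnq1ot1, Plagl1, Grb10, Zrsr1, Meg3, Peg13, Igf2r and Impact. The windows were set by their coordinates, with earlier results of these data known. Imprinting control regions are defined by methylation that differs between the parental copies. Methylation between the extremes could thus follow from the choice of regions alone. The windows held 195 of the 1310003 HpaII sites listed in all 8 livers. Of these, 157 had at least 10 tags in the MspI reference, out of 920199 such sites in the genome, and the 38 others were left out. Every window kept at least 3 sites, from 3 in Peg10, Nap1l5 and Meg3 to 32 in Nespas.

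An imprinting control region carries DNA methylation on the copy inherited from 1 parent and not on the other, a mark laid down in the egg or the sperm and kept in the tissues of the offspring. The mark decides which parental copy of the neighbouring genes is transcribed, through promoters of long noncoding RNAs, through insulators bound by CTCF, or directly at a gene's own promoter. The zinc finger protein ZFP57 binds a methylated hexamer, TGCCGC, in such regions and helps to keep the mark in the early embryo. In liver, several of the genes controlled in this way, among them Igf2, H19, Igf2r and Grb10, act on growth. Of the 18 windows, H19 and Meg3 belong to regions methylated on the paternal copy, and the other 16 to regions methylated on the maternal copy.

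Liver DNA came from C57BL/6J mice on a high-fat diet with lingonberries (4 livers, called lingonberry 1 to 4) or on the high-fat diet alone (4 livers, called HFD 1 to 4). Both groups thus received the high-fat diet, and the labels state no age, sex or feeding time. The assay, HELP-tagging, counts tags at CCGG sites after cutting with HpaII, which cuts only unmethylated CCGG, and sets them against tags made with MspI, which cuts CCGG whether or not it is methylated. Methylation is given as the deposited m-score, which ran from 0 (no HpaII tag, methylated) to 100 (no MspI tag, unmethylated). The m-score rises as methylation falls, and it ranks a site against the rest of the same library. The strain is inbred and the values hold no allele, so each m-score pools both parental copies and all cell types of the liver, and a share of alleles and a share of cells cannot be told apart. No expression was measured, so the labelled tissue could not be checked against marker genes.

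The livers held between 5877080 and 16076961 HpaII tags, and lingonberry 1 was the deepest. Lingonberry 2 and 4, with 9974503 and 10215066, were also above every HFD liver (5877080 to 7428108), while lingonberry 3 had 6121989. Depth thus ran partly with diet. Within the 18 windows the sum was 4267, 2549, 1651 and 2909 tags in lingonberry 1 to 4 and 1793, 1752, 1460 and 1853 tags in HFD 1 to 4. The median used site in the windows had 34 MspI tags and a mean of 13.6 HpaII tags per liver. Tags were counted without molecular identifiers, so any counting error given below covers counting alone.

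The sites measured lie at CCGG, and CCGG spacing placed 4 promoters on measured sites in or beside a window. The pair that fell inside a window (Zrsr1, Mcts2) is shown, with that of Grb10 as an example from a flank. Sequences are from RefSeq on GRCm38.p6, run 5′ to 3′ on the strand of the gene from 250 bases before its start, and have CCGG in capitals. The Zrsr1 promoter is chr11:22971755-22972054 (plus strand), the Mcts2 promoter is chr2:152686898-152687197 (plus strand) and the Grb10 promoter is chr11:12037371-12037670 (minus strand).
Zrsr1: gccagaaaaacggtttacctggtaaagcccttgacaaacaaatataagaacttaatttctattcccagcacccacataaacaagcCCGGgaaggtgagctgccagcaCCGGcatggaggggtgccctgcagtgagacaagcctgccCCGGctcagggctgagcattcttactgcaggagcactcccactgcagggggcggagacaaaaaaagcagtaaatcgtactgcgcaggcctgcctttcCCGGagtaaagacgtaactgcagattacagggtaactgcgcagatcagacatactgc
Mcts2: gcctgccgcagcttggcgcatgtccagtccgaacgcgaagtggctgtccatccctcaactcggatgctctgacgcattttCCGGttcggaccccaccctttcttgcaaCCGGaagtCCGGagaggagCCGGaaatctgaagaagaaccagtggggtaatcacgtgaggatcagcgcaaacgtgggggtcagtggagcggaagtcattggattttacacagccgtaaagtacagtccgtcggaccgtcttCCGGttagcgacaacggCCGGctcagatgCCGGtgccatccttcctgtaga
Grb10: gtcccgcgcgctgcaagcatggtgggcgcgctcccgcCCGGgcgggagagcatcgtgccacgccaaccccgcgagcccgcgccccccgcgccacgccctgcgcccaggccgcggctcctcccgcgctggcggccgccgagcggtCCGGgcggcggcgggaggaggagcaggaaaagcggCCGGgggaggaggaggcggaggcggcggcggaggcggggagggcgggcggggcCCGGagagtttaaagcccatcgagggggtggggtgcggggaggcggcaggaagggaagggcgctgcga

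All 4 CCGG of the Zrsr1 promoter matched listed sites inside its window by their spacing, with 0 other places in the genome matching as many. Counted from the 5′ end, CCGG 2, 3 and 4 had mean m-scores of 52.5 ± 14.7, 74.2 ± 3.98 and 52.2 ± 11.0 (SD over 8 livers), and CCGG 1 had 3 MspI tags and was not used. Zrsr1 is an intronless gene inside an intron of Commd1 and encodes a splicing factor relative. In the Mcts2 promoter, 4 of 7 CCGG matched listed sites in the window, and 3 other places in the genome matched as many. CCGG 1, 4 and 5 stood at 52.3 ± 9.36, 66.4 ± 8.28 and 66.3 ± 11.1, and CCGG 2 had 9 MspI tags and was not used. The Grb10 promoter differed from both in place and in level. Its 4 CCGG matched sites in the flank of the window and not in it, with 0 other places matching as many, and they stood at 68.8 ± 8.71, 83.7 ± 4.98, 88.5 ± 2.99 and 64.6 ± 6.86, so all 4 means lay above the window's mean of 52.9. A Gnas promoter, not printed, also fell in the flank of its window, with 4 of 6 CCGG matched and 1 other place matching as many. Its 3 used sites stood at 80.9 ± 3.37, 87.4 ± 4.39 and 68.2 ± 9.41.

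RefSeq promoters were found for 13 of the 18 genes, 23 promoters in all. CCGG occurred in 13 of the 23, against 52.8% of 32851 promoters in the table. The hexamer TGCCGC, searched on both strands, occurred in 9 of the 23, from Mcts2, Nnat, Mest, Nap1l5, Snrpn, Plagl1, Grb10 and Meg3, against 11.6% of all promoters. The Mest promoters holding it overlap almost wholly, with starts at 30737800 and 30737803. By gene it was 8 of 13, against 13.1% of all genes. Placement by CCGG spacing was tried only for promoters with 3 or more CCGG, 5 of the 23. Among these, the promoters holding TGCCGC were that of Mcts2, placed inside its window, and that of Grb10, placed in a flank. The other promoters holding it had too few CCGG to be placed, so whether they lie in a window was not determined. A CCGG can overlap a TGCCGC. A match describes the letters of the promoter and not binding.

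Sites in the windows had intermediate m-scores. An m-score between 25 and 75, called intermediate here, was found as the 8-liver mean at 135 of the 157 sites (86.0%), with 10 sites below and 12 above. The same share was 40.3% of the 263 used sites in the 10 kb flanks on either side, 40.4% of the 128087 other clustered sites (5 or more neighbouring sites within 500 bp) and 25.5% of the 340330 isolated sites (no neighbour within 500 bp). Within single livers the share over the windows was 75.2%, 83.4%, 72.6% and 77.7% in lingonberry 1 to 4 and 73.9%, 73.2%, 86.0% and 80.9% in HFD 1 to 4. The lowest of these 8 shares lay above the highest share of the flanks, 40.3%, and of the clustered sites, 44.3%. As the regions are defined by methylation that differs between the parental copies, this contrast is not independent of their choice.

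**Figure D1:**
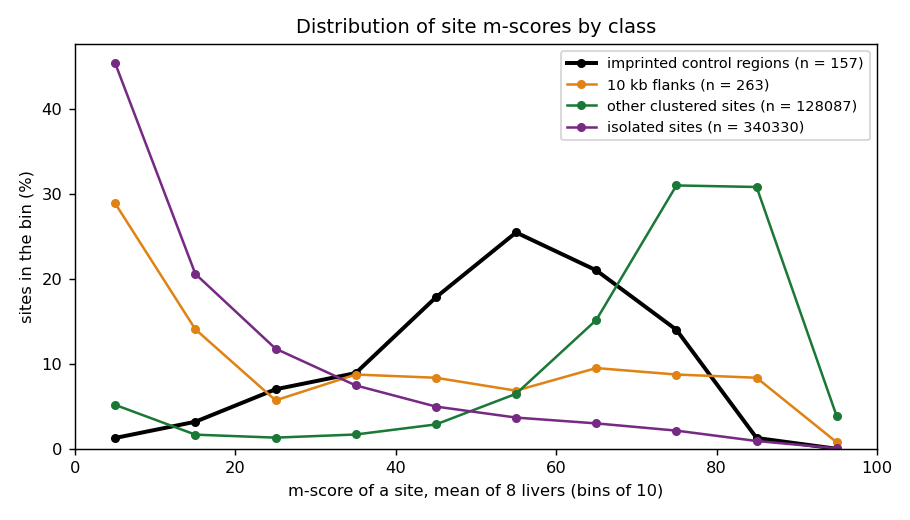
Share of sites (%) in each bin of 10 units of the 8-liver mean m-score, for used sites in the 18 windows, their 10 kb flanks, other clustered sites and isolated sites. Sites in the windows were most frequent from 50 to 60 (25.5%), clustered sites from 70 to 80 (31.0%) and isolated sites from 0 to 10 (45.4%).

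The distribution over the windows differed in shape from that of both site classes. Clustered sites, which are typical of unmethylated CpG islands, had a mean m-score of 69.1 ± 1.43 (SD, n = 8) and isolated sites one of 18.9 ± 1.73, while sites in the windows stood at 52.9 ± 1.60. Of the used window sites, 76 had 5 or more neighbours and 8 had none. The rest lay between these densities, and no class of such sites was compared. Window means also lay in the intermediate range, with all 18 between 36.6 and 62.4 and 13 of them between 40 and 60. At the scale of windows that range is common, since 40.4% of 120470 bins of 5 kb outside the windows had such a mean, and 77.5% of the 12085 bins in which clustered sites were the majority.

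The windows can also be described by their tags. The ratio of HpaII to scaled MspI tags in a window, as a percentage of the same ratio over 66792 clustered sites outside the windows with a mean m-score of at least 75, was 30.3%, 28.04%, 31.9% and 32.2% in lingonberry 1 to 4 and 29.5%, 34.0%, 32.9% and 31.8% in HFD 1 to 4, as means over the 18 windows. Single windows ran from 18.0% in Nap1l5 to 43.9% in Plagl1. The reference sites were chosen on the m-score, which is made from the same tags, so a percentage below 100 was fixed by that choice. The percentage depends on which sites stand for unmethylated DNA, and was 39.0% with sites at 60 or above and 21.3% with sites at 85 or above, so it is no estimate of a methylated share.

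Both paternally methylated windows were among the 4 lowest, with the maternally methylated Nap1l5 (39.1) and Nnat (40.2) between them. H19 encodes a long noncoding RNA, and its control region is an insulator bound by CTCF that governs Igf2. Its window (chr7:149765000-149769000) had m-scores of 37.9, 43.0, 36.1 and 39.3 in lingonberry 1 to 4 and 30.9, 32.8, 36.5 and 36.1 in HFD 1 to 4. Its mean of 36.6 ± 3.74 (SD, n = 8) was the lowest of the 18. The lingonberry livers ran from 36.1 to 43.0 and the HFD livers from 30.9 to 36.5, so the groups overlapped at their edges. Within the window, the site at 149767292 stood at 15.3, between 6.87 and 23.9 over the livers, while the highest, at 149767093, stood at 46.1.

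Meg3 is a long noncoding RNA of the Dlk1 cluster. Its window (chr12:110765000-110770000) had m-scores of 40.8, 48.1, 24.8 and 42.8 with lingonberries and 35.4, 47.8, 41.1 and 40.7 on HFD alone, with a mean of 40.2 ± 7.46. It rests on 3 sites and 113 MspI tags, and 1 site, at 110767080, stood at 16.6. Over H19 and Meg3 together the mean was 38.4 ± 4.69, against 52.8 ± 1.98 over the 16 maternally methylated windows, and lower in every liver. The paternal group has 2 windows and 7 sites, so this difference describes those windows.

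Several maternally methylated windows carry the promoters of long noncoding RNAs that run antisense to or beside the genes they control. Kcnq1ot1 is transcribed against Kcnq1, and its window (chr7:150480000-150483000) had m-scores of 60.4, 55.1, 58.4 and 64.6 with lingonberries and 63.4, 65.2, 55.7 and 68.5 on HFD. Its mean, 61.4 ± 4.80, was among the 3 highest. Nespas, antisense to the Nesp transcript of the Gnas cluster, has the widest window (chr2:174119000-174127000), with 50.6, 51.1, 55.1 and 56.4 against 51.5, 53.7, 53.3 and 47.4. Peg13 lies within Trappc9, and its window (chr15:72636000-72643000) had 57.3, 52.4, 57.1 and 60.4 against 52.5, 62.3, 61.5 and 58.8. The groups overlapped in each of these 3 windows. The Igf2r window (chr17:12933000-12937000) holds the promoter of Airn, a noncoding RNA that silences the receptor which clears IGF2, and its livers had 58.7, 57.4, 48.7 and 52.9 against 55.8, 46.9, 48.3 and 57.2.

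The maternally methylated windows at Plagl1, Grb10, Peg3, Gnas and Mest had means between 42.3 and 62.4. Plagl1, a zinc finger transcription factor, had the highest mean of the 18 windows (chr10:12809000-12812000), with m-scores of 60.1, 64.2, 67.0 and 64.8 with lingonberries and 62.5, 61.0, 61.9 and 57.8 on HFD. Grb10, an adaptor that restrains insulin and growth factor signalling, had 48.9, 57.1, 48.9 and 58.2 against 53.8, 49.9, 58.9 and 47.2 (chr11:11925000-11928000). Peg3, another zinc finger protein, had 42.5, 39.7, 27.6 and 54.7 against 44.3, 47.5, 35.8 and 46.0 (chr7:6679000-6685000). Lingonberry 3 was the lowest Peg3 value and lingonberry 4 the highest. Gnas encodes the stimulatory G protein alpha subunit, and its window (chr2:174151000-174154000) had 51.9, 54.4, 56.2 and 60.03 against 52.1, 55.3, 46.7 and 48.4. Mest, a member of the alpha/beta hydrolase fold family, had 43.8, 48.8, 48.7 and 54.8 against 41.4, 42.6, 53.0 and 49.1 (chr6:30684000-30690000).

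Genes that arose by retrotransposition form a further group of maternally methylated windows. Mcts2, a copy within an intron of H13, had 57.2, 57.3, 55.0 and 59.9 with lingonberries and 56.9, 63.2, 56.1 and 59.5 on HFD (chr2:152512000-152514000). Zrsr1 had 63.7, 58.1, 58.7 and 59.5 against 60.7, 56.8, 56.0 and 57.6 (chr11:22871000-22875000). These windows had small spreads, 2.63 and 2.46 (SD over 8 livers). Nap1l5, named for its likeness to nucleosome assembly proteins, had 45.0, 40.4, 38.5 and 45.4 against 22.0, 54.5, 34.9 and 32.6 (chr6:58856000-58858000). Peg10, derived from a retrotransposon, had 39.8, 33.2, 62.3 and 52.5 against 42.9, 42.3, 30.6 and 63.1 (chr6:4696000-4700000). Peg10 and Nap1l5 rest on 3 sites and 79 MspI tags each, and their SDs, 12.3 and 9.74, were the widest of the 18.

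The remaining windows belong to genes best known from brain. Snrpn, which encodes a splicing protein of the Prader-Willi cluster, had 61.0, 59.3, 53.6 and 60.3 with lingonberries and 61.8, 54.9, 57.5 and 55.2 on HFD (chr7:67147000-67151000). Impact, a regulator of translation, had 63.6, 54.5, 66.7 and 62.5 against 54.4, 65.01, 62.8 and 62.1 (chr18:13130000-13133000). Nnat, a small membrane proteolipid encoded within Blcap, was lower, with 41.4, 39.3, 40.9 and 42.1 against 33.8, 32.8, 42.6 and 48.3 (chr2:157385000-157388000). At Nnat the lingonberry livers ran from 39.3 to 42.1, inside the HFD range of 32.8 to 48.3.

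**Figure D2:**
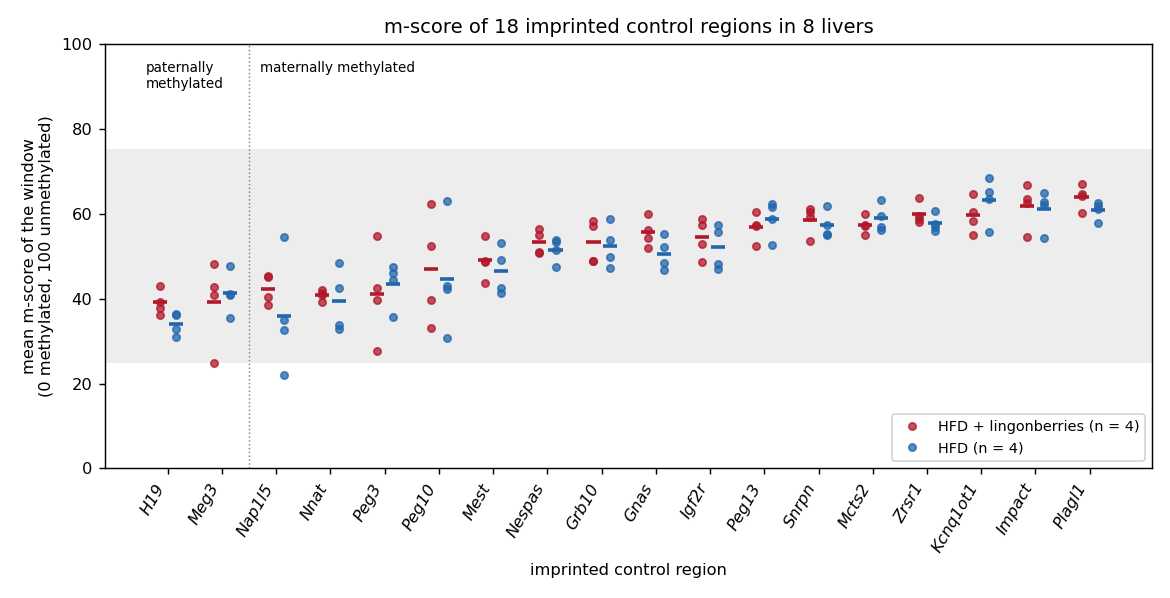
Mean m-score of each of the 18 windows (0 methylated to 100 unmethylated), 1 point per liver, 4 livers on the high-fat diet with lingonberries and 4 on the high-fat diet alone. All window means lie between 36.6 (H19) and 62.4 (Plagl1), and the groups overlap in every window.

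In 16 of the 18 windows all 8 livers were intermediate. The exceptions were 1 liver each, HFD 1 at Nap1l5 (22.0) and lingonberry 3 at Meg3 (24.8). Neighbours in the order of the 18 means lay closer than the larger of their SDs over livers, for example Mcts2 at 58.1 ± 2.63 and Zrsr1 at 58.9 ± 2.46. Across the 18 windows, the mean m-score had a Pearson r of 0.517 and a Spearman rho of 0.610 with the median number of neighbouring sites, a description over windows that share the same 8 libraries.

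Most windows had higher m-scores than the DNA around them, by unlike amounts. In 13 of 18, the window mean was above its own flank in all 8 livers. Impact was 56.5 ± 4.16 units above its flank, Mcts2 42.2 ± 2.64, Plagl1 40.7 and Snrpn 35.4 (mean difference over 8 livers, with SD for the first pair). The flank means were 4.89, 15.96, 21.7 and 22.6, towards the methylated end. The smallest gap of the 13 was at Nespas, 4.82 ± 2.86 units above a flank at 47.6. There, 20 of 26 flank sites were themselves intermediate. Flanks of Peg3 and Igf2r had only 3 and 4 used sites, and those of Snrpn and Impact 5 each. The Mest flank held a run of close sites at -9845 to -9464 bases from the window centre, several with the same mean, 0.679. Peg10 had a low run too, at 7339 to 8673 bases. Its flank sites at -8216 and -2641 bases stood at 63.7 and 67.5, above the window's 45.8, and that at -3646 at 4.53. How far these runs lowered the flank means was not tested.

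The other 5 windows did not rise above their flanks in all livers. Grb10 was below its flank in 8 of 8 livers, by 9.31 ± 4.68 units, and that flank, at 62.2, held the CpG-rich promoter printed above. Nnat was above its flank in 1 liver, H19 in 3, Gnas in 5 and Meg3 in 5. Around Meg3, 13 of 18 flank sites were themselves intermediate, so the window's bounds were not visible in the values. With the bounds of all windows moved 1 kb outwards, the mean difference between diets over the windows was 0.73 in place of the 1.30 given below.

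**Figure D3:**
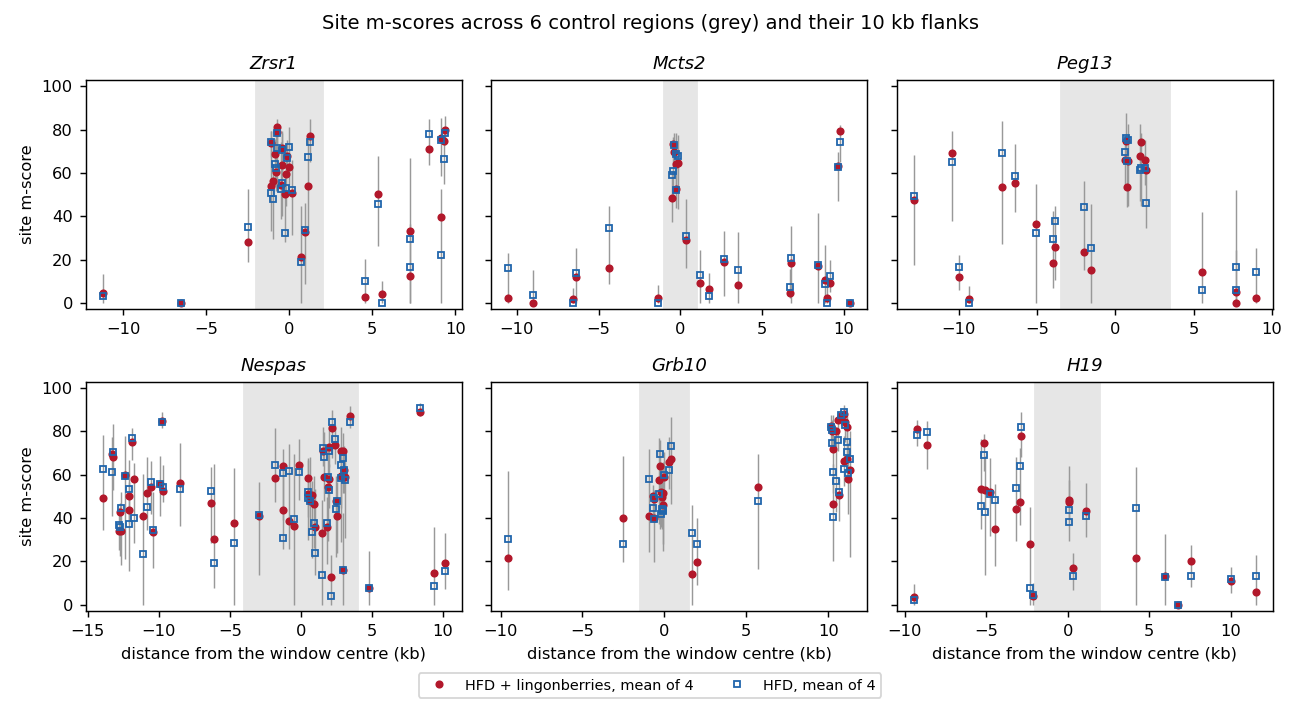
Site m-scores (mean of 4 livers per group, vertical lines from the lowest to the highest of the 8 livers) against distance from the window centre (kb) in 6 windows, shaded grey, with their 10 kb flanks. Most sites near the Mcts2 window are low (16 of its 19 flank sites below 25), the Zrsr1 flank is mixed (5 of 13 below 25), and the right flank of Grb10 holds sites above its window.

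Sites within a window had unlike levels. The SD over the 8-liver means of the sites of a window ran from 8.40 to 22.7, with a median of 14.6. In the Nespas window the site at 174125155 stood at 8.34 and the site at 174125191 at 83.2, and the second was higher in 8 of 8 livers. Gnas held the lowest site with at least 20 MspI tags, 174151437, with a mean of 2.39 and 0 HpaII tags in 6 livers. That site lies 437 bases inside the window and has no neighbour within 500 bp.

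The study asked whether lingonberries altered hepatic methylation on a high-fat diet, and for the 18 windows no difference passed the test. With limma, fitted over the windows and all 5 kb bins together and adjusted by the Benjamini-Hochberg method, 0 of 18 windows had an adjusted p below 0.05, where 0.0% of 120488 windows and bins did. At an unadjusted p below 0.05 there were also 0 of 18, against 6.75% over all. The smallest unadjusted limma p was 0.0921, at Gnas (adjusted p = 0.770). In 0 of 18 windows were the groups free of overlap, against 3.77% over all.

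Gnas was 4.99 ± 2.70 units (limma SE) higher with lingonberries, 55.6 ± 3.43 against 50.6 ± 3.83 (SD, n = 4 per group). H19 was 5.02 ± 2.90 higher, 39.1 ± 2.92 against 34.1 ± 2.71 (limma adjusted p = 0.778). Plagl1 was 3.21 ± 2.07 higher, 64.0 ± 2.88 against 60.8 ± 2.10 (limma adjusted p = 0.802). Kcnq1ot1 went the other way, 3.60 ± 2.99 lower with lingonberries (limma adjusted p = 0.845). Its difference was -2.09 without lingonberry 2, -6.09 without HFD 3 and -1.84 without HFD 4. With at least 50 MspI tags per site, which left fewer sites in both windows, the differences of Plagl1 and Kcnq1ot1 turned, to -4.99 and 7.65. Nap1l5 had the widest difference, 6.32 ± 5.75, which falls within its HFD spread of 13.5. It was 1.67 without HFD 1 and 12.5 without HFD 2. None of these exceeded the spread between livers by the test.

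**Figure D4:**
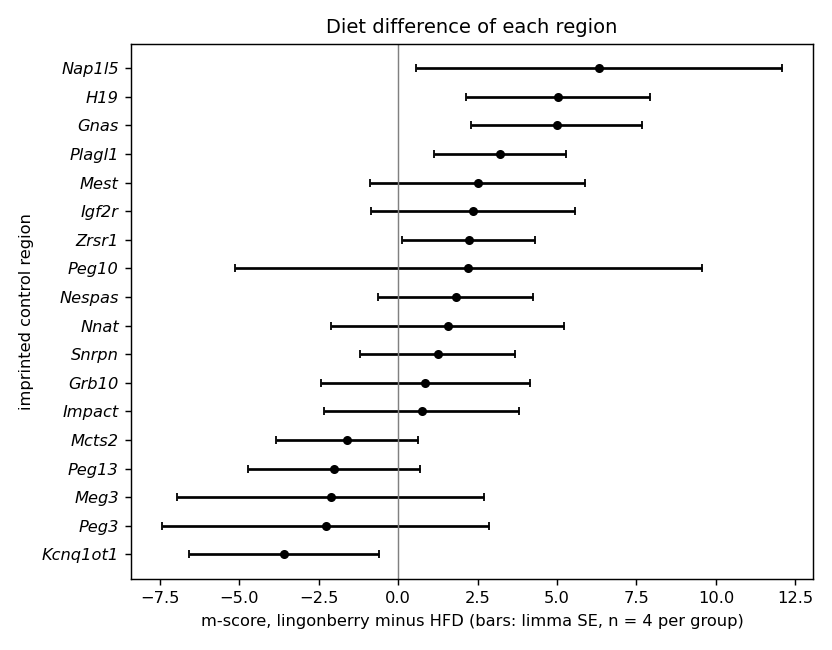
Difference in mean m-score (lingonberry minus HFD) for each window, with limma standard errors as bars (n = 4 per group). Values run from -3.60 at Kcnq1ot1 to 6.32 at Nap1l5, and no adjusted p is below 0.770.

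Higher means with lingonberries were found in 13 of 18 windows and lower ones in 5, with a median difference of 1.68. Over all windows and bins 38.3% were higher and the median difference was -1.05. Over the 12085 bins in which clustered sites were the majority, 72.3% were higher and the median was 1.27. Of the 157 used window sites, 76 had 5 or more neighbours. With tags adjusted for local site density, 13 of 18 windows were higher, against 47.1% of all windows and bins. The mean difference over the windows was then 1.33. Whether the direction of the windows came from site density was not tested. The mean over the 18 windows was 51.4, 50.7, 50.2 and 55.1 in lingonberry 1 to 4 and 48.7, 51.9, 49.6 and 52.0 in HFD 1 to 4. It was 51.8 ± 2.19 with lingonberries and 50.5 ± 1.67 on HFD alone, a difference of 1.30. Without lingonberry 4 the difference was 0.23.

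Lingonberry 4 was the highest liver over the windows. It was above the 8-liver mean in 17 of 18 windows, with Igf2r the exception, and by 3.86 units on average. It was also the highest liver over the clustered sites outside the windows, at a mean m-score of 71.1. HFD 1 was the lowest, 2.53 units below the 8-liver mean. With the tags of each window summed before the m-score was taken, the mean over the windows was 55.4 with lingonberries and 53.9 on HFD, a difference of 1.53. The percentage of the reference ratio had the opposite order, 30.6% ± 1.89 with lingonberries and 32.1% ± 1.92 on HFD. Its denominator, the HpaII to MspI ratio at the reference sites, was 4.10 ± 0.142 with lingonberries and 3.74 ± 0.205 on HFD.

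**Figure D5:**
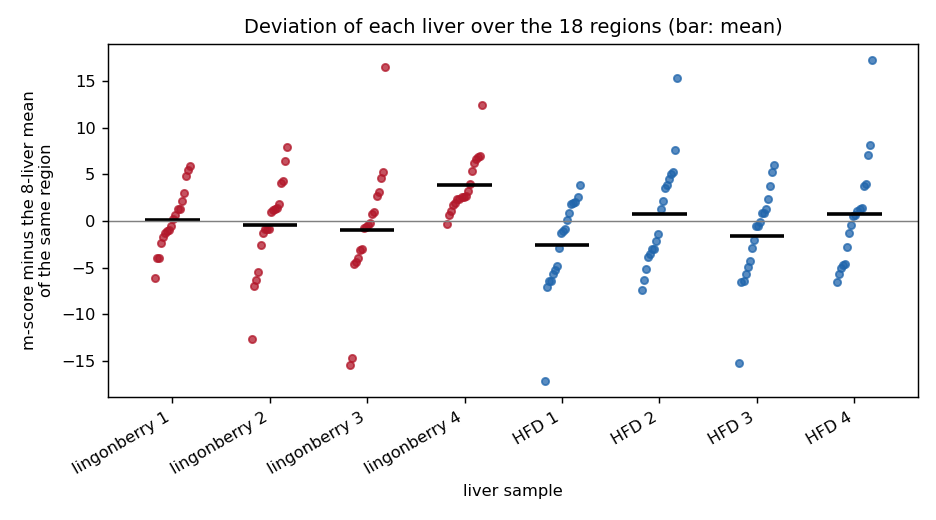
Deviation of each liver from the 8-liver mean of the same window (m-score units), 1 point per window and a bar at the mean of the 18. Lingonberry 4 has a mean of 3.86 with 17 of 18 points above 0, and HFD 1 has a mean of -2.53.

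Single sites gave no call either. With limma over all 920199 sites, 0 of 157 window sites had an adjusted p below 0.05, where 0.00978% of all sites did, and the smallest adjusted p was 0.830. At an unadjusted p below 0.05 there were 10 (6.37%, against 5.16% of all sites), 7 higher and 3 lower with lingonberries. Groups did not overlap at 5 sites (3.18%, against 2.38%), 4 of them higher (0.817% of all sites) and 1 lower (1.57%). The mean was higher with lingonberries at 87 of the 157 sites (55.4%, against 41.7%).

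Among sites with a mean of at least 10 HpaII tags, the smallest unadjusted p fell in Mcts2, Impact and Kcnq1ot1. The Mcts2 site at chromosome 2, 152512550, had m-scores of 69.7, 74.3, 76.5 and 72.6 with lingonberries and 47.0, 65.7, 65.6 and 65.7 on HFD. All 4 lingonberry livers lay above all HFD livers there, by 12.2 ± 4.64 units (limma SE, adjusted p = 0.830). Its neighbour in the same window, at 152512523, differed in the opposite direction, 48.3 ± 8.74 against 59.0 ± 1.58. The Impact site at chromosome 18, 13130708, had 68.4, 74.7, 76.9 and 66.0 against 57.5, 50.1, 56.2 and 71.5, and HFD 4 fell among the lingonberry values. The Kcnq1ot1 site at chromosome 7, 150482362, had 29.0, 35.04, 45.2 and 55.7 against 49.9, 79.2, 51.4 and 76.6, which overlapped too.

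The median spread of the windows was close to that over all windows and bins, which pool unlike m-score levels and site counts. By within-group SD, single windows ranged from percentile 10.5 (Zrsr1) to 99.5 (Peg10) of all windows and bins. The within-group SD of a window had a median of 4.83, against 4.80 over all windows and bins, and counting error alone gave a median of 3.64. The within-group SD was above the counting error in 14 of 18 windows. That error covers HpaII tags only and takes a site without HpaII tags in a liver as free of error, so it can be too low. Within-group SD and number of sites ran in opposite directions, with a Spearman rho of -0.468 and a Pearson r of -0.431 between them, again a description over 18 windows.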

How the data were processed

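HELP-tagging data of 8 livers were used as deposited, 4 per group, grouped by the diet in the labels. Each deposited file lists, per the file headers, an m-score (a score from 0 to 100) and conf (a signal that is never negative) for each HpaII site. Both were interpreted from their values, as the angle (m-score) and length (conf) of a vector with MspI and HpaII tags as its sides. A single MspI reference, of 29676323 tags, was shared by the files and rescaled to each liver. Recovered HpaII tags were whole within 0.02 at 96.1% to 97.0% of the sites that had any HpaII tag in a liver. Per the submitters' processing notes, mm9 and CASAVA were used. Aligner, tag filters and MspI source: not given in the sources used here.

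Sites listed in all 8 files with at least 10 MspI tags were kept. A window's value was the mean m-score of its sites. Windows were fitted in 1 table with all 5 kb bins of at least 3 sites, and sites in 1 table with all sites, using limma 3.58.1 in R 4.3.3 (empirical Bayes with a mean trend, two-sided, Benjamini-Hochberg over the whole table, adjusted p below 0.05). The fit of windows and bins was tested on simulated data, and the fit of sites was not. The outcome of that test is not given here, so the size of difference that 4 livers per group could reveal is left unstated. Tables and figures were made with Python 3.11.15, numpy 2.4.6, pandas 2.3.3, scipy 1.17.1 and matplotlib 3.10.9.

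All 18 windows are named. As no site passed, the 3 sites with the smallest unadjusted p and a mean of at least 10 HpaII tags are named, with the highest or lowest site of a window (at least 20 MspI tags) as description. Other single sites were chosen after their values were seen. The windows and lists were chosen with earlier results of these data known. The labels do not say more on how the livers were sampled, so any p-value covers the spread among these livers, which may be technical. Alternatives covered the MspI minimum, each liver left out, local site density, shared tags, summed tags, medians, log2 of depth-scaled tags with a pseudocount of 0.5 tags, and wider bounds. Coordinates of mm9 and GRCm38.p6 were not converted.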

Additional observations from a re-analysis of the deposited data

How the results depend on the processing

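The count of windows passing limma was 0 under all 16 alternatives and that of window sites was 0 under all 14. The share of intermediate sites, 77.9% over the 8 livers, was 70.5% with an MspI minimum of 1 tag, 88.2% with a minimum of 50 and 50.6% with bounds of 35 to 65. It was 76.7% to 78.6% with 1 liver left out. The ratio to unmethylated sites, 31.3%, was 39.0% with a reference at 60 or above and 21.3% at 85 or above, both added after seeing the data, and 30.9% to 31.8% with 1 liver left out. The mean difference over the windows was 0.23 to 1.84 with 1 liver left out.

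Of 283 recomputed window differences 35 changed sign, and 4 windows (Gnas, H19, Nap1l5 and Snrpn) changed sign under no alternative run. Gnas, Nap1l5 and Snrpn kept no site at an MspI minimum of 50, so they could not change sign there. H19 then had the difference of the site at 149767048, 9.35. An MspI minimum of 1 tag turned Meg3 (0.55), Peg13 (0.29) and Igf2r (-0.67). A minimum of 50, which left 13 windows, turned Mcts2 (3.70), Nnat (-3.18), Mest (-2.35), Kcnq1ot1 (7.65), Plagl1 (-4.99), Meg3 (1.93) and Igf2r (-3.97). These values rest on fewer sites than the window means. Those of Nnat and Meg3 were the differences of 1 site each, at 157386011 and 110767080. Density factors turned Grb10 (-1.88) and Meg3 (1.17), leaving out shared tags turned Impact (-0.39), and wider bounds turned Grb10 (-1.09). Summed tags turned Mcts2 (1.62) and Kcnq1ot1 (0.32), as did log2 of depth-scaled tags (0.076 and 0.012). Medians turned Nnat (-1.01), Nespas (-0.041), Zrsr1 (-2.75) and Peg13 (0.70). With 1 liver left out, the difference ran from -0.89 to 3.00 at Grb10, -2.92 to 8.33 at Peg10, -6.80 to 2.23 at Peg3, -5.11 to 2.66 at Meg3, -1.48 to 3.19 at Impact and -0.63 to 4.54 at Nnat. The cause was not tested.

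No paired analysis was possible because the labels pair no livers between the groups. In the windows of 3 sites, Peg10, Nap1l5 and Meg3, the within-group SD was 13.3, 9.87 and 7.96, and counting error gave 7.12, 7.56 and 5.67.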

Other observations

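Neighbouring sites of a window often had unlike levels. Of 139 pairs of adjacent used sites, 63 lay within 100 bp of each other, and their 8-liver means differed by a median of 11.6 m-score units, against 16.8 units over the 76 pairs farther apart. In 5 of the 63 close pairs the means differed by more than 30 units, 3 of them in Nespas, 1 in Nnat and 1 in Mest. The closest, at 174125971 and 174125975 in Nespas, lay 4 bases apart and stood at 15.95 and 69.3, and the second was higher in 8 of 8 livers. In Mest, the sites at 30689255 and 30689334 stood at 63.4 and 26.3, and the second was lower in 8 of 8 livers. These pairs were picked after their values were seen.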
